A study of Mus musculus with 2 samples.

Results

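Accessible chromatin was examined at 10 genes of replication fork remodelling and DNA damage tolerance, out of 21887 protein-coding genes on chromosomes 1 to 19, X and Y. The 10 genes were chosen by function, with no signal value in the rule but with earlier results of these data known. They were Polk, Polh, Poli, Rev1, Rev3l, Mad2l2, Rad18, Smarcal1, Zranb3 and Hltf. For each, the called regions were taken from the gene body and 50 kb on each side (mm10). Regions within 1 kb of either end of the gene, called gene-end regions here, were kept apart from the others. The regions came from ATAC-seq, in which a transposase inserts sequencing adapters into open DNA, of about 1000 hematopoietic stem cells per library. The cells were sorted as CD48-CD150+LSK from the bone marrow of wild-type C57BL/6J mice. The control cells carried the empty retroviral vector pMSCV, and the H1C cells carried MSCV-H1C, which adds the linker histone H1C. Both groups were wild-type and transduced, and the labels give neither the age nor the number of the mice. With 1 library per group, differences between the groups have no replicate check and were not tested.

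When a replication fork meets a damaged base, the cell can copy across it or move the fork backwards. RAD18 attaches ubiquitin to PCNA, the clamp that holds polymerases on DNA, and so recruits translesion polymerases that accept damaged templates. HLTF extends that ubiquitin into a chain, and with the DNA translocases SMARCAL1 and ZRANB3 it can fold a stalled fork into a reversed, four-way structure. Translesion synthesis is also a step in the repair of DNA interstrand crosslinks, the lesion that cells handle poorly in Fanconi anemia, the disease the series concerns.

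Neither list gives a read total. Depth was read from the genome-wide background per position, which was 3.99 for control and 4.40 for H1C. The H1C value was 1.1 times the control value. A pileup is the number of reads or fragments stacked at the summit of a region, and each pileup was solved from the deposited fold and −log10 p. Log2 ratios of pileup are H1C over control after division by 1.1. Their 95% intervals, like those of shares, cover counting error only. Over the whole genome the control list held 31843 regions and the H1C list 13012. Of 10 genes listed for hematopoietic stem cells, 6 had a gene-end region in control and 0 had one in H1C. The 6 were Kit, Ly6a, Slamf1, Meis1, Hlf and Ptprc, with pileups of 18 to 32, and Ptprc is not particular to stem cells. Over all protein-coding genes, 46.9% had a gene-end region in control and 33.6% in H1C. Among control gene-end regions, 6.13% of those with a pileup of 20 or less, 19% of those from 21 to 30 and 46.0% of those from 31 to 40 overlapped an H1C region, so nothing is read from the 6 regions about stem cell genes. Of 17 markers of erythroid, myeloid, B, T and non-hematopoietic cells, 9 had one in control, a share near that of all genes. Of these, 2 also had one in H1C, against 71.0% of all genes with a control gene-end region. They were Cd79a (B cell) and Cd3d (T cell), with control pileups of 63 and 69, above those of the 6 genes of the stem cell list. The markers called in control only had pileups of 14 (Epcam) to 27 (Pax5), where few gene-end regions were kept. Nothing is read from their loss. Accessibility at a gene end does not measure expression. In such bulk libraries, fewer cells with an open region and less opening per cell cannot be told apart. Libraries were amplified with 13 to 16 PCR cycles. With 1 library per group, H1C and a difference in library quality cannot be told apart either, and this was not tested.

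The 8 genes with a listed start in the RefSeq promoter table (GRCm38.p6) all had a control region over a start, against 46.0% of all protein-coding genes with a listed start. Bases before the start are shown for 6 of them. Polk and Zranb3 had the highest pileups of the 10 genes, Polh and Rad18 had the lowest, and Smarcal1 and Mad2l2 had their open start far inside their annotated bounds. Each is written 5′ to 3′ along the gene and ends at the base before the start. For Polk and Polh the stretch stops before the start of the neighbouring gene on the other strand. Capitals mark matches to any of the 8 motifs searched.
Polk, chr13:96542580-96542734, minus strand: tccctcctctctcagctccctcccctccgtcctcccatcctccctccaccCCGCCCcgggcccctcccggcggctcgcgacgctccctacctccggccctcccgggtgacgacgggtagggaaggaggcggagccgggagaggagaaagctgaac
Zranb3, chr1:128103048-128103297, minus strand: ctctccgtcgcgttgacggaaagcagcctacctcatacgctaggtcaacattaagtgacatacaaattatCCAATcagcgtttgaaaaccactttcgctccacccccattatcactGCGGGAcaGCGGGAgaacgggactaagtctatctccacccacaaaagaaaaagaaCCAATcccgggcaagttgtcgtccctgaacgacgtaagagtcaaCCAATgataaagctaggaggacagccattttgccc
Polh, chr17:46202642-46202810, minus strand: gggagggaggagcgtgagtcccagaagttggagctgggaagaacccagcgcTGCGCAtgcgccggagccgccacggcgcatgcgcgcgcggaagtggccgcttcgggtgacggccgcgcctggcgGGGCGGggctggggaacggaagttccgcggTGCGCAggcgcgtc
Rad18, chr6:112696671-112696920, minus strand: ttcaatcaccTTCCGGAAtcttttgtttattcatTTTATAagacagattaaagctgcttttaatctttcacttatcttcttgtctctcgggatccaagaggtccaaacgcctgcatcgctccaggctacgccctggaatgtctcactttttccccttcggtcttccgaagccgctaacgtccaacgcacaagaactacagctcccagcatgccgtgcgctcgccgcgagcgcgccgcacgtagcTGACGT
Smarcal1, chr1:72583001-72583250, plus strand: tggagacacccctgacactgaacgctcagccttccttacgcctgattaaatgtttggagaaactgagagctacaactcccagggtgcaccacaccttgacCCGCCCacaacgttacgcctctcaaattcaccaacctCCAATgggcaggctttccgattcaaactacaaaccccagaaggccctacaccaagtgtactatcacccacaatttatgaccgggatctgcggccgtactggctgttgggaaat
Mad2l2, chr4:148140240-148140489, plus strand: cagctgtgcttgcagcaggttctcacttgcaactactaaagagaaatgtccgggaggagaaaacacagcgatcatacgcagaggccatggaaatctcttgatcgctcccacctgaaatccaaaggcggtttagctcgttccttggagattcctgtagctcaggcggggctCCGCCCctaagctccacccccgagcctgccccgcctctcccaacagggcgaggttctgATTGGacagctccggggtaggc

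The motifs were searched on both strands of the 250 bases before and 50 after each start, and motifs may overlap. The 8 genes have 13 listed windows, of which 11 had a control region and are counted here. Windows of 1 gene can share bases, as those of Rad18 do. The GC box GGGCGG occurred in 6 of the 11 windows (Hltf, Mad2l2, Polh, Polk, Rev1 and Smarcal1), against 35.9% of all 32544 promoter windows and 70.1% of windows with a control region. CCAAT occurred in 5 (Hltf, Mad2l2, Smarcal1 and Zranb3), against 37.4% and 40.3%. The E2F core TCCCGC was found in 5 (Mad2l2, Polh, Rev1 and Zranb3), against 20.1% and 39.5%, and the CRE core TGACGT in 4 (Hltf, Rad18 and Zranb3), against 7.55% and 13.5%. The ETS core CCGGAA was in 2 (Rad18 and Zranb3), against 15.0% and 33.5%. TATAAA was in 3 (Rad18 and Hltf), against 13.6% and 5.50%. The TATAAA site of Rad18 lies in both of its windows and is counted in each, as is its CRE site. The NRF1 core TGCGCA was in 1 (Polh, with 2 matches), against 7.79% and 16.5%. The YY1 core AAGATGG was in 1 (Polk, at position -185), against 6.37% and 7.99%. Matches beyond the stretches shown, that of the YY1 core among them, were counted but are not printed. A match describes letters and does not show binding. Over the 13 windows, base composition ran from 40.7% GC for the Zranb3 start at position 128102471 to 83.0% for Rev1, against a median of 62.0% over windows with a control region.

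Gene-end regions were called at 7 of the 10 genes in control (70.0%, 95% interval 34.8 to 93.3) and at 6 in H1C (60%, 26.2 to 87.8). Over all protein-coding genes the shares were 46.9% and 33.6%. The 6 genes open in H1C were Polk, Polh, Rev1, Rev3l, Zranb3 and Hltf, and all 6 were also open in control. Rad18 was the gene with a control region alone. The kept share was therefore 6 of 7 (85.7%, 42.1 to 99.6), against 71.0% of all genes with a control gene-end region, which lies inside that interval. The remaining 3 genes, Poli, Mad2l2 and Smarcal1, had no region within 1 kb of an end in either library, but each had a region inside the gene body in both.

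**Figure D1:**
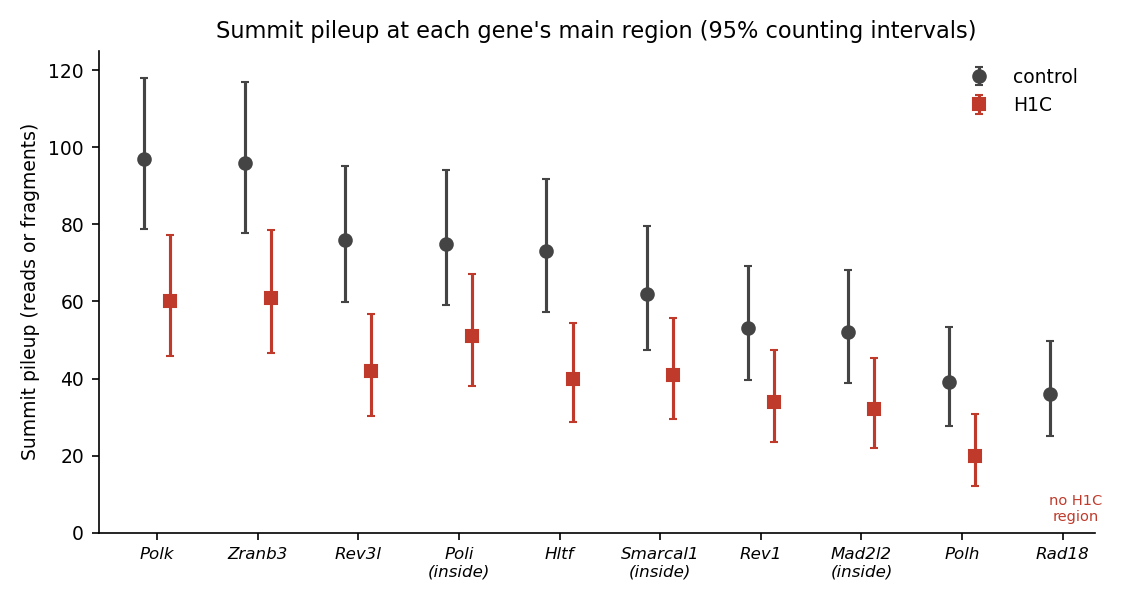
Summit pileup (reads or fragments) of the main region of each gene, control as circles and H1C as squares, with exact 95% Poisson counting intervals and 1 library per group. "Inside" marks genes whose main region lies over 1 kb from both gene bounds. In each of the 9 genes with both points the H1C point lies below the control point, from 97 and 60 at Polk to 39 and 20 at Polh, and Rad18 (control 36) has no H1C region.

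Among the translesion polymerases of the Y family, Polk had the strongest region. Polk encodes polymerase kappa, which copies past bulky adducts of the minor groove. Its gene-end region (chromosome 13, 96542272 to 96543064; gene 96480687 to 96542579) had a pileup of 97 in control and 60 in H1C. The deposited fold was 11.95 in control and 8.84 in H1C, and −log10 q was 67.8 and 34.3. The log2 ratio was -0.84 (-1.32 to -0.36). The summit lay at position -67 from the start in control and at the start in H1C. A second listed start of Polk, 23392 bp inside the gene, had no region in either library.

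Polh encodes polymerase eta, which copies past ultraviolet dimers and is lost in the variant form of xeroderma pigmentosum. Its region (chromosome 17, 46202486 to 46203117; gene 46171355 to 46202641) had a pileup of 39 in control and 20 in H1C, the lowest of the genes kept. The log2 ratio was -1.11 (-1.96 to -0.29). The fold was 6.94 in control and 3.66 in H1C. With −log10 q of at least 5 required in both lists, the H1C region of Polh, at 4.38, was no longer called. Among all control gene-end regions with a pileup of 39, 93 of 156 (59.6%, 51.5 to 67.4) overlapped an H1C region.

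Rev1 encodes a polymerase that inserts cytosine and serves as the docking platform of the other translesion enzymes. Its region (chromosome 1, 38129507 to 38130254; gene 38052786 to 38129921) had a pileup of 53 in control and 34 in H1C, with a log2 ratio of -0.78 (-1.45 to -0.13). The summits lay 2 bp apart, at position -139 from the listed start in control and -137 in H1C. It was the sole region within the gene body and 50 kb flanks of Rev1 in either library.

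Poli, the gene of polymerase iota (chromosome 18, 70508680 to 70534950), had no gene-end region. Its strongest region lay inside the gene, 4224 bp from the nearer end (70529939 to 70530726), with a pileup of 75 in control and 51 in H1C. The log2 ratio was -0.70 (-1.24 to -0.17). A weaker region 12215 bp inside the gene, with a pileup of 26, was called in control only.

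Polymerase zeta, which extends from the mismatched ends that the Y-family enzymes leave, is represented by Rev3l, its catalytic subunit, and Mad2l2, the REV7 subunit that also binds REV1. At Rev3l (chromosome 10, 39731561 to 39875211) control had a single region of 1773 bp, from 39731145 to 39732917, with a pileup of 76. H1C had 3 separate regions over the same span. They were 312, 611 and 200 bp wide, with pileups of 42, 31 and 23. The first lay over the gene end, the second began 268 bp from it, and the last, at 1046 bp, fell just outside the 1 kb limit. The highest summits of the libraries were 7 bp apart, and their log2 ratio was -1.0 (-1.58 to -0.44). Of 6385 shared control gene-end regions, 174 (2.73%) overlapped more than 1 H1C region, and Rev3l was the only one that overlapped as many as 3. Among the 14 that were at least 1500 bp wide in control, 4 overlapped more than 1. This count was made after the Rev3l regions had been seen.

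Mad2l2 (chromosome 4, 148130158 to 148145704) has 2 listed starts. Over the upstream start, at 148130920 and 762 bp from the gene bound, neither library had a region. Over the downstream start, at 148140490 and 5214 bp from the nearer bound, both had one. The control region (148139987 to 148140787) had a pileup of 52 and the H1C region one of 32, with a log2 ratio of -0.84 (-1.53 to -0.18). The summits lay 317 bp apart, the farthest of the 9 main regions with a partner.

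Rad18, the ubiquitin ligase that starts damage tolerance at PCNA, was the gene without an H1C region. The control region (chromosome 6, 112696173 to 112696821; gene 112619851 to 112696691) had a pileup of 36, a fold of 6.47 and a −log10 q of 17, and its summit lay at position -26 from the farther upstream of 2 listed starts. It was the weakest of the 7 gene-end regions in control. The H1C list gives no value where nothing was called, so no ratio was computed. Of the 193 control gene-end regions with the same pileup, 96 (49.7%, 42.5 to 57) overlapped an H1C region, with H1C pileups of 16 to 52 and a median of 24. No other region was called in the 50 kb flanks of Rad18 in either library, and the nearest outside them lay 165003 bp away in control and 165155 bp in H1C.

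The 3 fork-reversing translocases were open in both libraries. Zranb3, which binds ubiquitinated PCNA, had a gene-end region of 1419 bp (chromosome 1, 128102408 to 128103826; gene 127954179 to 128103053) with a pileup of 96 in control and 61 in H1C. The log2 ratio was -0.80 (-1.28 to -0.32), and the H1C region was 775 bp wide. Hltf, a ubiquitin ligase as well as a translocase, had pileups of 73 and 40 at its end (chromosome 3, 20057455 to 20058116; gene 20057808 to 20118491), with a log2 ratio of -1.01 (-1.60 to -0.43). The fold of Hltf, 11.53 in control, stood at percentile 99.2 of that list, next to Polk at 99.5. Smarcal1, which is recruited by the single-strand binding protein RPA, had its region at a listed start 46556 bp inside the annotated gene (chromosome 1, 72582994 to 72583582; gene 72536695 to 72636790). Its pileup was 62 in control and 41 in H1C, with a log2 ratio of -0.74 (-1.34 to -0.15). No other region was called in the Smarcal1 window.

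Pileups were lower in H1C at all 6 shared gene-end regions of these genes, where 98.9% of all shared gene-end regions had a ratio below 0. The log2 ratio had a median of -0.92 and ran from -1.11 at Polh to -0.78 at Rev1. All 6 intervals lay below 0, as did those of 74.8% of shared control gene-end regions over the genome, and all 6 held the stretch from -1.28 to -0.44. The 6 intervals thus overlapped one another, and no order among the genes was read from the ratios. The median over all 6385 shared gene-end regions was -0.84 (quartiles -1.04 and -0.65), and over those with a control pileup of 30 to 100 it was -0.86. With the regions of Poli, Mad2l2 and Smarcal1 added, the median over 9 genes was -0.84. The size of the drop depended on the depth measure. Scaled by the median local background at shared summits, a ratio of 0.869, the median of the 6 was -0.57, and 3 of the 6 intervals lay below 0 (Polk, Rev3l and Hltf), against 34.2% of shared gene-end regions. Local background takes in reads of the regions themselves, and which depth measure is nearer the true ratio was not tested.

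**Figure D2:**
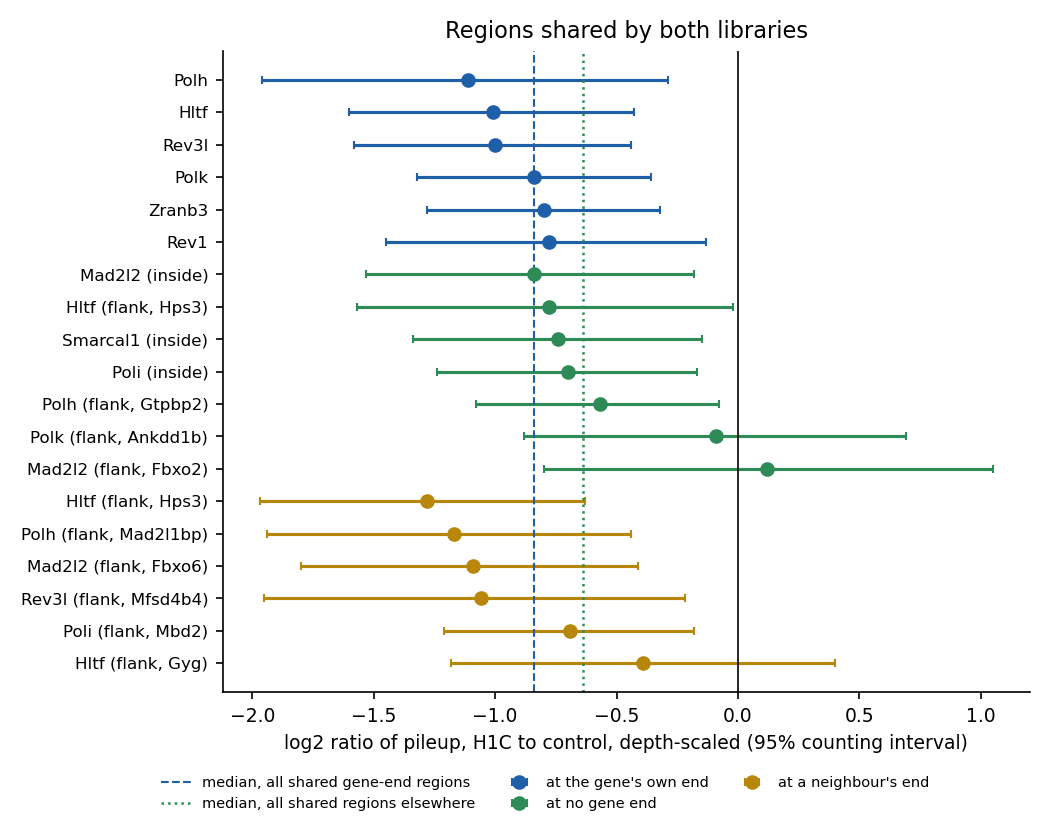
Depth-scaled log2 ratio of summit pileup, H1C to control, for the 19 control regions of the 10 gene windows that overlapped an H1C region, with exact conditional binomial 95% intervals and 1 library per group. Colours separate regions at the gene's own end, at a neighbour's end and at no gene end, with the gene of the nearest end named for flanks. The 6 gene-end ratios lie from -1.11 to -0.78, around the median of all shared gene-end regions (dashed, -0.84; the dotted line is the median of shared regions elsewhere), and the only ratio above 0 is a flank region of Mad2l2 at 0.12.

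The open stretch was also narrower in H1C at each of the 6 gene ends, by the pair of regions with the highest summits. Their median width fell from 770.5 bp to 382 bp. For Rev3l the H1C width, 312 bp, is that of the highest of 3 regions over the 1773 bp control region. Over all shared gene-end regions the H1C region was the narrower in 90.6%, and the medians were 597 bp for control and 392 bp for H1C. A lower pileup leaves less of a region above the calling threshold, and the part of height in these widths was not tested. Summits stayed close, with a median distance of 8.5 bp over the 6 genes and 25 bp over all shared gene-end regions.

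At Polk, Polh and Zranb3 the open region also covered the start of a neighbouring gene on the opposite strand. The start of Cert1, a ceramide transfer protein gene, lay 156 bp from that of Polk. Xpo5, which encodes exportin 5 for microRNA precursors, started 170 bp from Polh, and R3hdm1 started 259 bp from Zranb3. In these stretches the signal of the gene and of its neighbour cannot be told apart. Of all control gene-end regions, 1716 of 10147 (16.9%) touched the ends of at least 2 genes, and 74.3% of these were shared with H1C, against 60.6% of the 8431 regions at the end of 1 gene. All 3 such regions of these genes were shared.

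Away from the genes' own ends, the windows held 31 control regions and 15 H1C regions. H1C overlapped 13 of the 31 (41.9%, 24.5 to 60.9), against 37.3% over the windows of all protein-coding genes. The shares over all genes in this paragraph count a region once for each gene window that holds it. Regions at a neighbour's end were kept in 6 of 13 cases (46.2%, 19.2 to 74.9), against 62.1%. Regions at no gene end were kept in 7 of 18 cases (38.9%, 17.3 to 64.3), against 22.4%. Without the inside regions of Poli, Mad2l2 and Smarcal1 described above, that share was 4 of 15 (26.7%, 7.79 to 55.1). Each background share lies inside its interval.

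The number of regions per window differed widely among the 10 genes. Rev1, Rad18 and Smarcal1 had 1 region each in control, Rev3l had 2, Polk and Zranb3 had 3, Poli and Hltf had 6, Mad2l2 had 7 and Polh had 8. The median over the 10 was 3.00, equal to that over all protein-coding genes. In H1C the windows held 0 (Rad18) to 5 (Hltf) regions, with a median of 2.00 over the 10 and 1.00 over all protein-coding genes. By control fold, the strongest region of the Polh window away from Polh lay at an end of Mad2l1bp, whose product helps to silence the spindle checkpoint, with pileups of 49 and 24. A region 1497 bp from an end of Gtpbp2 (chromosome 17, 46160724 to 46161145) had higher pileups there, 81 and 60. In the Poli window the strongest lay at the end of Mbd2, a reader of methylated DNA, with 82 and 56. In the Hltf window it lay at the end of Hps3, with 64 and 29 and a log2 ratio of -1.28 (-1.97 to -0.63), the lowest of the 19 shared regions. The strongest of the Mad2l2 window lay at the adjoining ends of Fbxo6 and Fbxo44, with 54 and 28, and that of the Rev3l window at the end of Mfsd4b4, with 36 and 19. In the Zranb3 window, the 2 further regions lay inside the gene with control pileups of 19 and 15, and neither was called in H1C. In the Polk window, a region inside the gene with a fold of 6.10 and a pileup of 30 was called in control only. Another, 2134 bp from Ankdd1b, had 29 and 30 and a log2 ratio of -0.09 (-0.88 to 0.69).

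**Figure D3:**
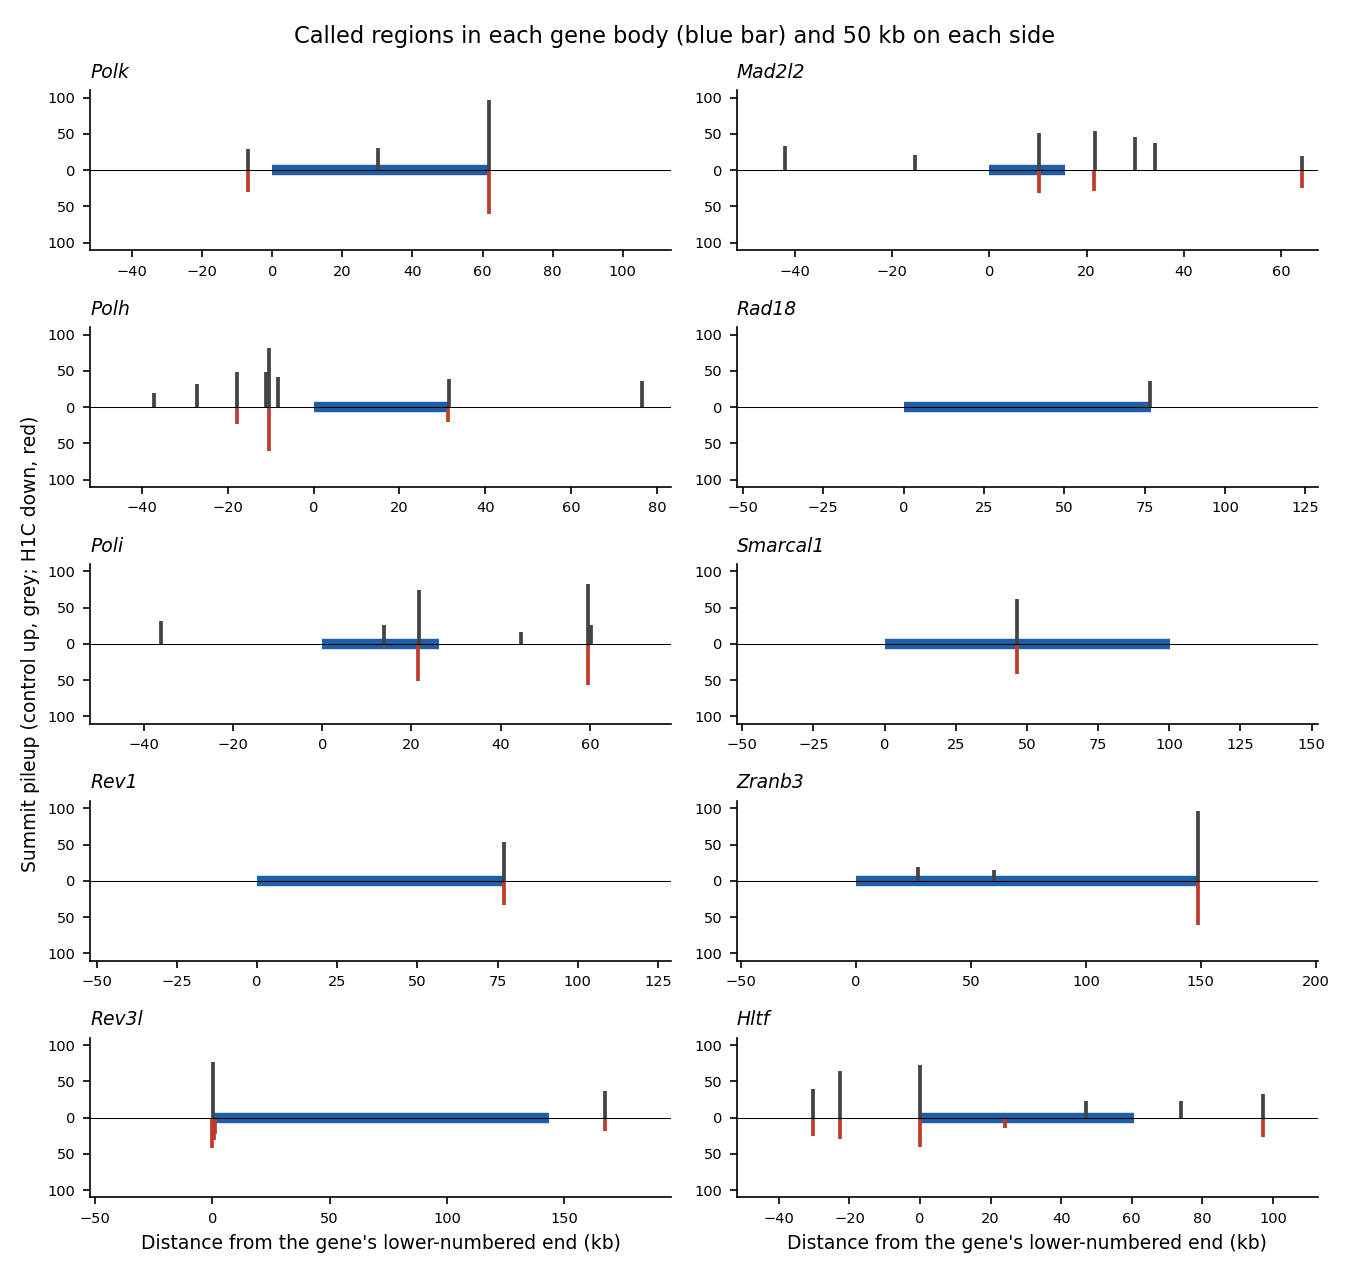
Called regions of the 10 windows by distance from the gene's lower-numbered end (kb), with the gene body as a blue bar, control summit pileup drawn upward and H1C summit pileup drawn downward. Rev1, Rad18 and Smarcal1 have a single control region each, and Polh has 8 in control and 3 in H1C.

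Regions missing in H1C were mostly the weaker ones. The 18 control-only regions away from the genes' own ends had pileups of 15 to 49 with a median of 28, and the 13 shared ones had 20 to 82 with a median of 52. By fold, the strongest control-only regions of the windows were that of Rad18 (6.47), the adjoining ends of 4930503L19Rik and Stard6 near Poli (6.41, pileup 31), the inside region of Polk (6.10), an end of Rsph9 near Polh (5.91, pileup 32) and the adjoining ends of Fbxo44 and Fbxo2 near Mad2l2 (5.39, pileup 46). The region with the highest pileup among them, 49, lay 937 bp from an end of Gtpbp2, just inside the gene-end limit. Every one of the 12 control regions of the windows with a pileup of 52 or more was shared, a cutoff set after these regions had been seen. Over the genome, 83.5% of gene-end regions and 61.5% of other regions with a pileup of 41 to 60 were shared. From 61 to 80 the shares were 98.2% and 94.6%, and above 80 they were 100% and 99.2%.

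Over the genome the kept share rose with control pileup, from 6.13% of gene-end regions with a pileup of 20 or less and 19% from 21 to 30. It was 46.0% for gene-end regions with a pileup of 31 to 40, the step that holds Rad18 and Polh. It was 83.5% from 41 to 60 (Rev1), 98.2% from 61 to 80 (Rev3l and Hltf) and 100% above 80 (Polk and Zranb3). Rad18, the gene whose call was lost, and Polh, the weakest of those kept, lay in the lowest step that these genes reached.

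**Figure D4:**
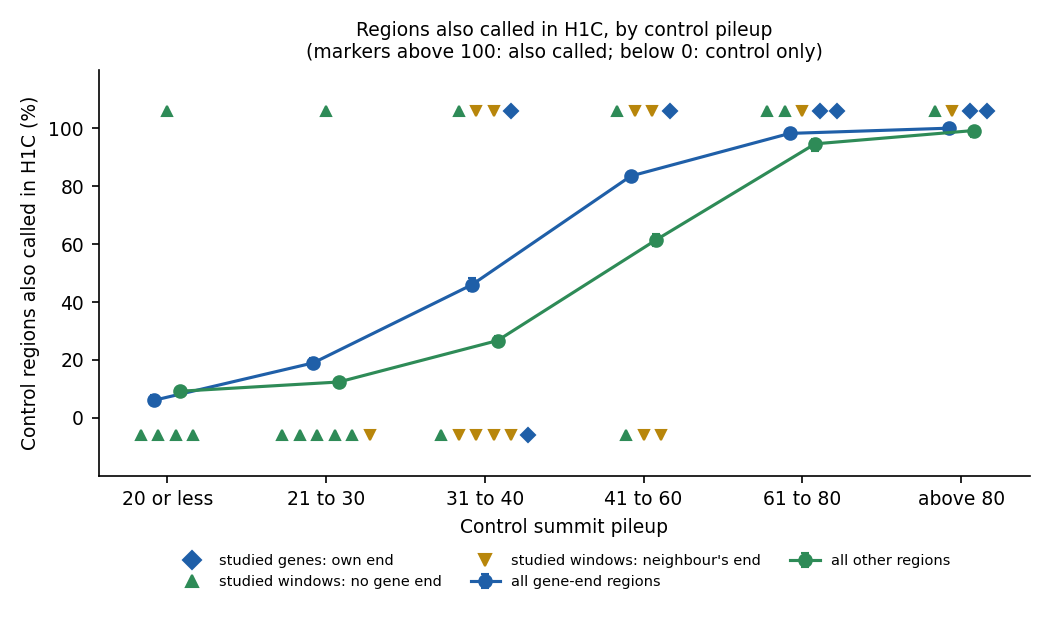
Share of control regions also called in H1C (%) by control summit pileup, for all gene-end regions and all other regions, with exact 95% intervals. Symbols above 100 and below 0 are the 38 control regions of the 10 windows, placed by whether H1C had an overlapping region, and have no height of their own. Rad18, the 1 region lost of the 7 at the genes' own ends, lies in the step from 31 to 40, where 46.0% of all gene-end regions were kept, and 7 of the 13 regions at neighbours' ends were lost.

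In the reverse direction, 21 of the 22 H1C regions of the windows (95.5%, 77.2 to 99.9) overlapped a control region, against 85.0% of all H1C regions. The exception lay inside Hltf (chromosome 3, 20081825 to 20082024), 24017 bp from the nearer end, with a pileup of 15, a fold of 2.96 and a −log10 q of 2.02. The lowest pileup in the H1C list was 14, so this region stood near its floor. The only shared region with a higher scaled pileup in H1C lay 48562 bp from Mad2l2, with 20 in control and 24 in H1C (log2 ratio 0.12, -0.80 to 1.05), a difference within counting error.

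Among 30 further genes of the damage tolerance pathway, 27 had a gene-end region in control (90.0%, 73.5 to 97.9), against 46.9% of all genes, and 23 of these (85.2%, 66.3 to 95.8) also had one in H1C, an interval that holds the 71.0% of all genes. The genes with none in either library were Usp7, Radx and Slf2. Among the 7 genes of PCNA and its ubiquitination, 5 were kept, among them Pcna (pileups of 89 and 61) and Shprh, a ubiquitin ligase related to HLTF (76 and 36, log2 ratio -1.22, -1.83 to -0.63). The other two were control only. Ube2b encodes a ubiquitin-conjugating enzyme that works with RAD18, as does Ube2a, and its control region (chromosome 11, 52004075 to 52004433) had a pileup of 76 and a fold of 7.16. Of the 1737 control gene-end regions with a pileup of 61 to 80, 32 had no H1C region. Ube2a, its near-identical partner on the X chromosome, had pileups of 26 and 30 and a log2 ratio of 0.06 (-0.74 to 0.88). Ube2v2, a partner of UBE2N in chain building, had a control region alone with a pileup of 40, while Ube2n itself had 94 and 48.

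Of 4 genes that remove ubiquitin from PCNA or unload it, Usp1 and Wdr48 were kept and Atad5 (pileup 23) was control only. All 4 genes of polymerase extraction (Sprtn, Nploc4, Ufd1 and Vcp) and all 4 of other polymerases (Primpol, Polq, Pold3 and Poldip2) were kept. Primpol, which restarts synthesis beyond a lesion, had pileups of 83 and 57. Of 11 genes of single-stranded DNA, fork reversal and RAD18 partners, 8 were kept and Slf1, whose product binds RAD18 at stalled forks, was control only with a pileup of 33. Rpa3, a subunit of RPA, had the highest control fold of the list, 13.65. The 23 kept genes had a median log2 ratio of -0.98, from -1.44 at Recql to 0.06 at Ube2a, and 20 of the 23 intervals lay below 0, against 74.8% of all shared gene-end regions.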

How the data were processed

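ATAC-seq was measured in 1 control and 1 H1C library. Per the submitters' processing notes, MACS2, Picard, featureCounts, Bowtie2 2.2.9 and Trim Galore 0.4.4 were among the tools, with build mm10. How duplicates were treated and whether reads were shifted to the cut site is not given in the sources used here. Regions had been listed per library. The deposited fold is a ratio of summit pileup to local background after adding 1 to both. The −log10 p and −log10 q values were deposited as the peak caller gave them, and the deposited score repeats −log10 q. These values describe regions within a list.

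Pileup and background were solved from fold and −log10 p, assuming a Poisson upper tail, and accepted within a relative tolerance of 0.0001 for 32005 of 32005 control and 13155 of 13156 H1C regions. On simulated data the solver recovered 99.649% of 1995 pileups. Regions were shared at an overlap of at least 1 bp. A pileup ratio used the overlapping H1C region with the highest pileup. Gene bounds and promoters came from RefSeq tables of GRCm38.p6, the build of mm10. The 30 pathway genes and the 27 markers all matched. Intervals are exact (Clopper-Pearson for shares, conditional binomial for ratios) and cover counting error only; amplified fragments are not independent molecules.

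The members, lists and tests were chosen with earlier results of these data known. The rule for named genes took the 10 genes, the genes at or nearest to named regions, the strongest flank region of each window, the 5 control-only regions of highest fold, all H1C-only regions, and from the pathway list up to 3 control-only and 2 kept genes by control fold; other genes named were chosen after their values were seen. Regions on unplaced or patch sequences were left out. Alternatives covered windows, thresholds, overlap rules, flanks and depth ratios. The scripts ran under Python 3.11.15 with scipy 1.17.1, pandas 2.3.3, matplotlib 3.10.9 and numpy 2.4.6.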

Additional observations from a re-analysis of the deposited data

How the results depend on the processing

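Each of 6 results was recomputed under 5 of 12 other settings, which gave 30 values. In 27 cases the value stayed inside its own interval or quartiles, in 3 it moved and in 0 it reversed. The median log2 ratio at shared gene ends was -0.57 with the local background ratio. H1C regions of the windows that overlapped a control region were 72.7% with at least 50% overlap of both regions and 100% where −log10 q had to reach 5. At that threshold the unmatched H1C region inside Hltf, with a −log10 q of 2.02, was left out. The 50% rule also dropped H1C regions at Rev3l, Hltf and Poli that lay inside wider control regions. The cause of the shift in the ratio was not tested. The kept share stayed at 6 of 7 genes with 500 and 2500 bp windows and with lists of equal length, where the share over all genes was 84.2%. It was 5 of 7 at the stricter threshold, which lost Polh in H1C. Promoter windows as gene ends (7 of 8 kept) and the ratio with 3 more genes were added after the data had been seen. No paired analysis was possible because of the single library per group. At control pileups near 20 the counting error spans the typical drop, so regions that weak in control could not be told lower or higher.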

Other observations

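The bounds of a gene decide whether its start counts as a gene end. Of 17492 protein-coding genes with a listed promoter, 1708 (9.76%) had every listed start over 1000 bp from both bounds of the gene, and Smarcal1 was among them. A control region lay over a listed promoter but at no gene end for 602 genes, 7.48% of those with a control region over a promoter, and 2 of these were Smarcal1 and Mad2l2. Of the 602 genes, 374 (62.1%, 95% interval 58.1 to 66.0) also had a promoter window overlapped in H1C, against 73.0% of all 8048 genes with a control region over a promoter. With promoter windows in place of gene ends, 8 of 8 of the fork remodelling and damage tolerance genes with a listed start were open in control, against 46.0% of all genes with one, and 7 of them also in H1C. This comparison was made after the data had been seen.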
